A study of Rattus norvegicus with 15 samples.

Results

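The intestinal machinery that moves sterols out of cells, and the liver X receptors (LXRs) that control it, was followed through 10 genes chosen by name. They are the sterol transporters Abcg5, Abcg8, Abca1 and Abcg1, the receptors Nr1h2 and Nr1h3, the ubiquitin ligase gene Mylip, the HDL receptor gene Scarb1, and the sterol esterification genes Soat1 and Soat2. All probes whose gene name in the array files is one of these were taken, 13 of the 41012 probes on the array and 10 of the 16256 genes that could be named. Of these probes, 12 were tested, at least 1 for each of the 10 genes, because all arrays of some group were well above background. Total RNA from a segment of the small intestine of male rats was hybridized to 15 one-color arrays, 1 rat per array and 5 rats per group. Wistar rats were nondiabetic and had no operation. Goto-Kakizaki (GK) rats, a nonobese strain with inherited type 2 diabetes, were either sham-operated and pair-fed (GK-Sham-PF), with an intestinal incision and reconnection 16 cm from the ligament of Treitz, or had Roux-en-Y gastric bypass (RYGB) with a Roux limb (RL) of 30 cm (GK-S-30). Both GK groups were operated on at 16 wk of age and tissue was taken 14 wk postoperation, after an overnight fast. The segment was cut from the RL in GK-S-30 rats, and was the corresponding segment of bowel without rearrangement in the other groups. Comparisons with GK-S-30 therefore set rerouted bowel beside bowel left in its place. GK-Sham-PF and Wistar rats differed in strain, operation and feeding together, and these cannot be told apart.

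Enterocytes take up dietary and biliary CHOL at the brush border. Part of it is esterified by acyl-CoA:CHOL acyltransferases (SOAT1 and SOAT2, the latter being the main enzyme of the intestine) and packed into chylomicrons. Plant sterols and some CHOL are returned to the lumen by the ABCG5/ABCG8 heterodimer, while ABCA1 at the basolateral side loads CHOL onto apoA-I to form HDL. Oxysterols that accumulate with cell CHOL activate LXRα (Nr1h3) and LXRβ (Nr1h2), which bind DNA with RXR at direct repeats spaced by 4 bases (DR4) and raise transcription of the transporters and of Mylip (also called IDOL), whose product is a ubiquitin ligase that acts on sterol uptake. When cell sterol is low, SREBP2 instead raises synthesis and uptake genes.

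The 3 groups were compared pairwise in 1 limma model on quantile-normalized log2 signals, with Benjamini-Hochberg adjustment over all 16314 tested probes at 0.05, and all differences below are on the log2 scale. Log2 signals of different probes are not compared with each other, since they depend on the probe. A summed signal of tissue also cannot tell fewer cells of a type from less RNA per cell. The arrays had similar overall brightness (75th percentile of processed signal 329 to 384) apart from Wistar replicate 3 and GK-Sham-PF replicate 5, at 225 and 224. The arrays lay on 4 slides, and only GK-Sham-PF and Wistar (slide B) and GK-S-30 and GK-Sham-PF (slide C) shared one. Slide C held GK-Sham-PF replicates 4 and 5 and GK-S-30 replicates 1 and 2.

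Abcg8, on its 1 tested probe, was lower after RYGB than in sham-operated rats, and Scarb1 was lower in both GK groups than in Wistar rats. Neither result passed with slide as a fixed block. In GK-S-30 versus GK-Sham-PF rats, 1 of the 12 tested probes passed (Abcg8, lower), beside 8.53% of all tested probes. None of the 12 had arrays that did not overlap, beside 8.52% of all probes. The differences of 11 of the 12 were below 0, the exception being Soat1, with Mylip and Scarb1 counted by 2 probes each. The one nearest 0 was that of Abcg1 (-0.0028), and 53.2% of all tested probes lay below its value. With slide as a fixed block 8 of the 12 were below 0. The median over the 10 genes was -0.34, beside -0.03 over all 12389 genes. In GK-Sham-PF versus Wistar rats, 2 of the 12 passed, both of Scarb1 and lower, beside 7.72% of all probes, and again none was without overlap, beside 8.95%. Here the median over the 10 genes was 0.05, beside 0.01 over all genes. Between GK-S-30 and Wistar rats 6 of the 12 passed, both Scarb1 probes, Abcg8, Nr1h3 and Abca1 lower and Soat1 higher, beside 24.1% of all probes, and 3 had arrays that did not overlap, beside 18.3%. Both counts include Soat1, which met the filter for testing only through the GK groups. By the study's own kind of comparison, a one-way model per probe with Tukey's correction for the 3 pairs and no adjustment over probes, Abcg8 and Abcg5 passed between the GK groups beside 15.2% of all probes. The 3 comparisons share their groups, so these counts are not independent of each other.

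**Figure D1:**
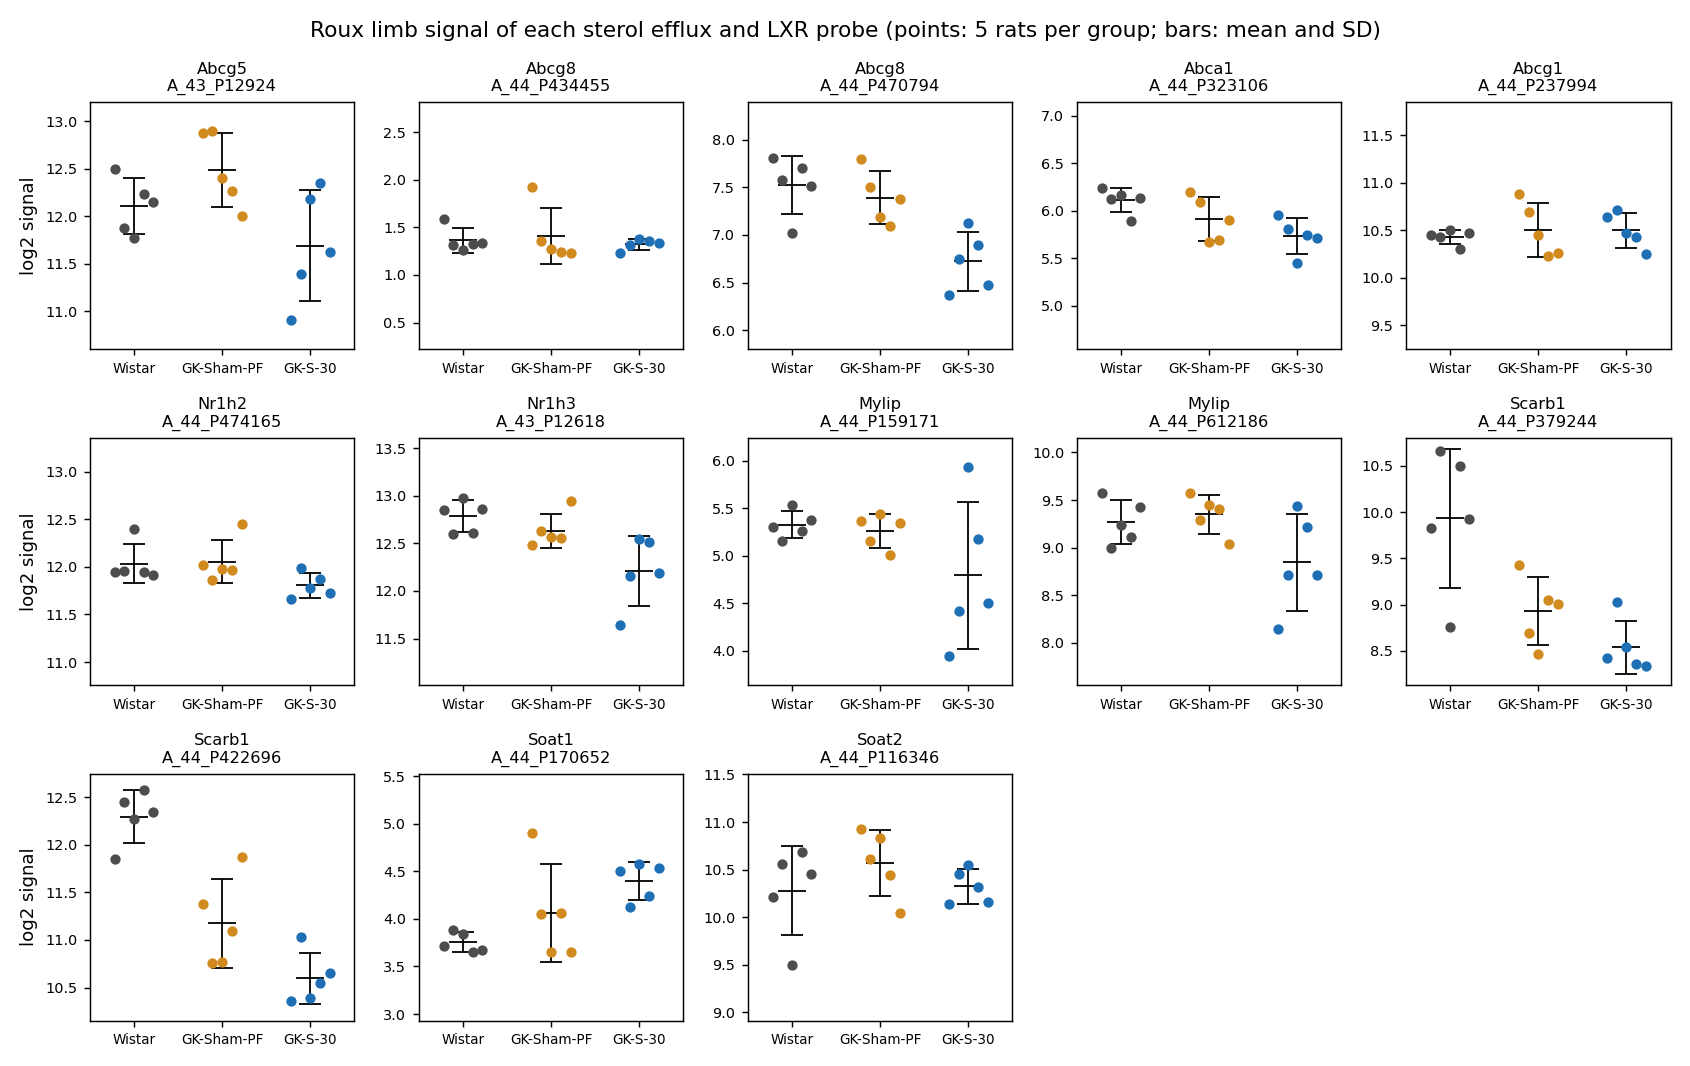
Log2 signal of each of the 13 probes (vertical axis, own range of at least 2.6 log2 units per panel) in the 3 groups, from left Wistar, GK-Sham-PF, GK-S-30; points are the 5 rats of a group and bars the mean and SD. Both Scarb1 probes step down from Wistar through GK-Sham-PF to GK-S-30, Abcg8 (A_44_P470794) is lowest in GK-S-30, and the second Abcg8 probe stays near the bottom of the scale in every group.

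Abcg5 and Abcg8, the half-transporters that together export sterols to the lumen, were each the lowest in GK-S-30 rats. The Abcg8 probe A_44_P470794 lies at chr6:8077904-8078127 of rn4, the build of the array annotation, on the plus strand, and since its 60 bases span 224 bases of genome it crosses a splice junction and reads spliced RNA. It is shown because it carries the one difference in GK-S-30 versus GK-Sham-PF rats that passed.
Abcg8 A_44_P470794: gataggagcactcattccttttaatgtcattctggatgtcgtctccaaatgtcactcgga
Its log2 signals were 7.81, 7.57, 7.02, 7.70 and 7.52 in Wistar replicates 1 to 5. They were 7.80, 7.51, 7.19, 7.09 and 7.38 in GK-Sham-PF rats, against 6.37, 6.75, 7.12, 6.89 and 6.47 in GK-S-30 rats. Wistar and GK-Sham-PF arrays lay in one range, and in GK-S-30 only the highest array, replicate 3, came above the lowest arrays of the other groups. Abcg8 fell by 0.67 ± 0.18 (SE, n = 5 and 5; 1.59-fold) from GK-Sham-PF to GK-S-30, with an adjusted p of 0.0293 by limma. Against Wistar rats it was lower by a difference of -0.80 ± 0.18 (1.75-fold, adjusted p = 0.00423, limma), while GK-Sham-PF and Wistar differed by -0.13 (95% interval -0.51 to 0.25, adjusted p = 0.764, limma). The difference from GK-Sham-PF on the shared slide C was -0.68, but with slide as a fixed block it no longer passed (adjusted p = 0.243, limma), nor did that from Wistar (-0.99, adjusted p = 0.307). With normexp background correction both differences still passed but were smaller, at -0.43 (adjusted p = 0.0351) from GK-Sham-PF and -0.50 (adjusted p = 0.00618) from Wistar. Without GK-Sham-PF replicate 1 or 2, or GK-S-30 replicate 1 or 5, the difference from GK-Sham-PF was -0.57 to -0.64 with adjusted p of 0.0673 to 0.0776 by limma.

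A second Abcg8 probe, A_44_P434455 (chr6:8082883-8082942, plus strand), starts 4440 bases into the same transcript record, where the first starts at 1468. It was not well above background on any of the 15 arrays, at 1.23 to 1.93, and was not tested.

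Abcg5 was read by A_43_P12924 (chr6:8028067-8028126, minus strand). Its log2 signals were 12.501, 11.88, 11.77, 12.23 and 12.16 in Wistar, and 12.87, 12.90, 12.40, 12.26 and 12.00 in GK-Sham-PF rats. In GK-S-30 rats they were 10.91, 11.40, 12.18, 12.35 and 11.63. GK-S-30 replicates 3 and 4 lay within the range of the other groups and replicates 1, 2 and 5 below all their arrays, so that the group was spread more widely (SD 0.59) than Wistar (0.29) or GK-Sham-PF (0.39). The difference of GK-S-30 versus GK-Sham-PF, -0.80 ± 0.26, did not pass (adjusted p = 0.0692, limma), although it was the larger of the pair. It passed without GK-Sham-PF replicate 5 (-0.92, adjusted p = 0.0461) or without GK-S-30 replicate 3 (-0.92, 0.0495) or 4 (-0.96, 0.0291). The difference on slide C alone was -0.98, with GK-S-30 replicates 1 and 2, the lowest arrays of the group. In order of level GK-Sham-PF was highest, Wistar next and GK-S-30 lowest, and the differences from Wistar did not pass for GK-Sham-PF (0.38, adjusted p = 0.471, limma) or GK-S-30 (-0.42, adjusted p = 0.26).

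The genes Abcg5 and Abcg8 lie head to head on chromosome 6, transcribed away from each other on opposite strands, and share the stretch between their starts. In RefSeq's GRCr8 annotation this is chr6:15717731-15717935, 205 bases, printed here on the plus strand, from the Abcg8 start to the Abcg5 start, because it is upstream of both members of the pair. Capitals mark AGATAA, a hexamer bound by GATA factors, searched on both strands.
Abcg8-Abcg5 intergenic: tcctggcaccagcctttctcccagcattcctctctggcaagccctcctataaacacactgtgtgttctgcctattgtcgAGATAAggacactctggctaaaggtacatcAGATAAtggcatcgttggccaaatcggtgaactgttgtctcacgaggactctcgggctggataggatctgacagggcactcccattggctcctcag
The hexamer occurred 2 times, beginning 126 and 96 bases before the Abcg5 start. Of 33469 RefSeq promoters, 8.35% hold it at least once in the 205 bases before the start and 0.604% hold 2 or more. The DR4 consensus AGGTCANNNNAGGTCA was not found here on either strand. An exact match was found in 1 of 33469 promoters over 205 bases, so its absence here says nothing about LXR elements with other letters. Binding was not measured.

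Abca1 was slightly lower in GK-S-30 than in Wistar rats, and Abcg1, which passes CHOL on to HDL mainly from macrophages, passed in no pair. The Abca1 probe A_44_P323106 (chr5:70493613-70493672, minus strand) gave 6.24, 6.12, 6.17, 5.90 and 6.13 in Wistar. It gave 6.20, 6.09, 5.68, 5.69 and 5.90 in GK-Sham-PF rats, against 5.96, 5.81, 5.45, 5.74 and 5.71 in GK-S-30 rats. All groups overlapped, with GK-S-30 replicate 1 the one array of its group above the lowest Wistar array. The levels went down from Wistar through GK-Sham-PF to GK-S-30, and neither step passed alone, at -0.20 (adjusted p = 0.411, limma) and -0.18 (adjusted p = 0.437). The whole span was -0.38 ± 0.12 (1.30-fold, adjusted p = 0.035, limma). That call was lost without Wistar replicate 1, 2, 3 or 5 or GK-S-30 replicate 3, 4 or 5, with adjusted p up to 0.0899, and no slide held both groups. With normexp background correction it was -0.19 (adjusted p = 0.0391). With slide as a fixed block the difference was -0.16, and that of GK-S-30 versus GK-Sham-PF, equal to the difference on slide C, changed sign to 0.09.

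Abcg1 (A_44_P237994, chr20:9459359-9459418, plus strand) had log2 signals of 10.43 ± 0.08 in Wistar, 10.50 ± 0.28 in GK-Sham-PF rats, against 10.50 ± 0.18 in GK-S-30 rats (mean ± SD, n = 5). The ranges overlapped throughout. The difference of GK-S-30 versus GK-Sham-PF was -0.00 with a 95% interval of -0.27 to 0.27 (adjusted p = 0.994, limma), and those from Wistar were 0.07 for each GK group. A direction was not settled, since other scalings of the arrays turned the sign between the GK groups.

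An LXR element of one of the 10 genes can be shown in sequence. The 250 bases before the Abca1 start of the RefSeq promoter entry (GRCr8 chr5:72596474-72596723, minus strand) are printed 5′ to 3′. They are shown because LXR acts on this gene through such an element, marked in capitals. The annotated gene runs over chr5:72473676-72596563, so it includes the end of the printed stretch and the element.
Abca1 upstream: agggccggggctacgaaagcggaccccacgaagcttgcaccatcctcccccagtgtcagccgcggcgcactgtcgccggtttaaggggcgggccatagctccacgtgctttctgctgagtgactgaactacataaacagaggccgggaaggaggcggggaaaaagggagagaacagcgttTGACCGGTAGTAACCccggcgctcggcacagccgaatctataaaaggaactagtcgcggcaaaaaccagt
The element begins 70 bases before the start of the promoter entry. It was searched as GGTTANNNNCGGTCA on both strands, letters taken from this promoter, so that its presence here is no finding. It was found in 2 of 33469 promoters. The consensus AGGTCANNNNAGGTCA was found in 1 promoter, not among those of the 7 genes with an entry. Of the 10 genes, 7 had a promoter entry in the RefSeq table, and Abcg1, Scarb1 and Soat2 did not.

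The receptor gene Nr1h3 was lower in GK-S-30 than in Wistar rats, and Nr1h2 did not pass in any pair. The Nr1h3 probe A_43_P12618 (chr3:75542215-75542274, minus strand) gave 12.86, 12.60, 12.98, 12.61 and 12.86 in Wistar. The values were 12.48, 12.63, 12.56, 12.55 and 12.94 in GK-Sham-PF rats, against 11.64, 12.16, 12.54, 12.52 and 12.19 in GK-S-30 rats. All GK-S-30 arrays were below all Wistar arrays, by a narrow margin for replicates 3 and 4. The difference from Wistar was -0.57 ± 0.16 (1.49-fold, adjusted p = 0.0146, limma) and passed with any 1 array left out (adjusted p 0.00886 to 0.0345), but not with slide as a fixed block (-1.15, adjusted p = 0.114). Against GK-Sham-PF the difference was -0.42 ± 0.16 and did not pass (adjusted p = 0.112). On slide C alone it was -0.85, with GK-S-30 replicates 1 and 2, the lowest arrays of the group. GK-Sham-PF and Wistar rats differed by -0.15, which did not pass (95% interval -0.48 to 0.18).

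Nr1h2, which encodes the LXR found in most tissues (A_44_P474165, chr1:95027486-95027545, minus strand), gave 11.95, 11.96, 12.40, 11.95 and 11.92 in Wistar. It gave 12.02, 11.87, 11.98, 11.96 and 12.45 in GK-Sham-PF rats, against 11.66, 11.99, 11.78, 11.87 and 11.73 in GK-S-30 rats. One array stood clear above the rest in Wistar and in GK-Sham-PF, and in each group it was the dimmest array, replicate 3 and replicate 5. GK-S-30 differed from GK-Sham-PF by -0.25 (adjusted p = 0.261, limma) and from Wistar by -0.23 (adjusted p = 0.205). GK-Sham-PF and Wistar differed by 0.02 (95% interval -0.24 to 0.29), and the sign of this turned without GK-Sham-PF replicate 5 (-0.08).

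**Figure D2:**
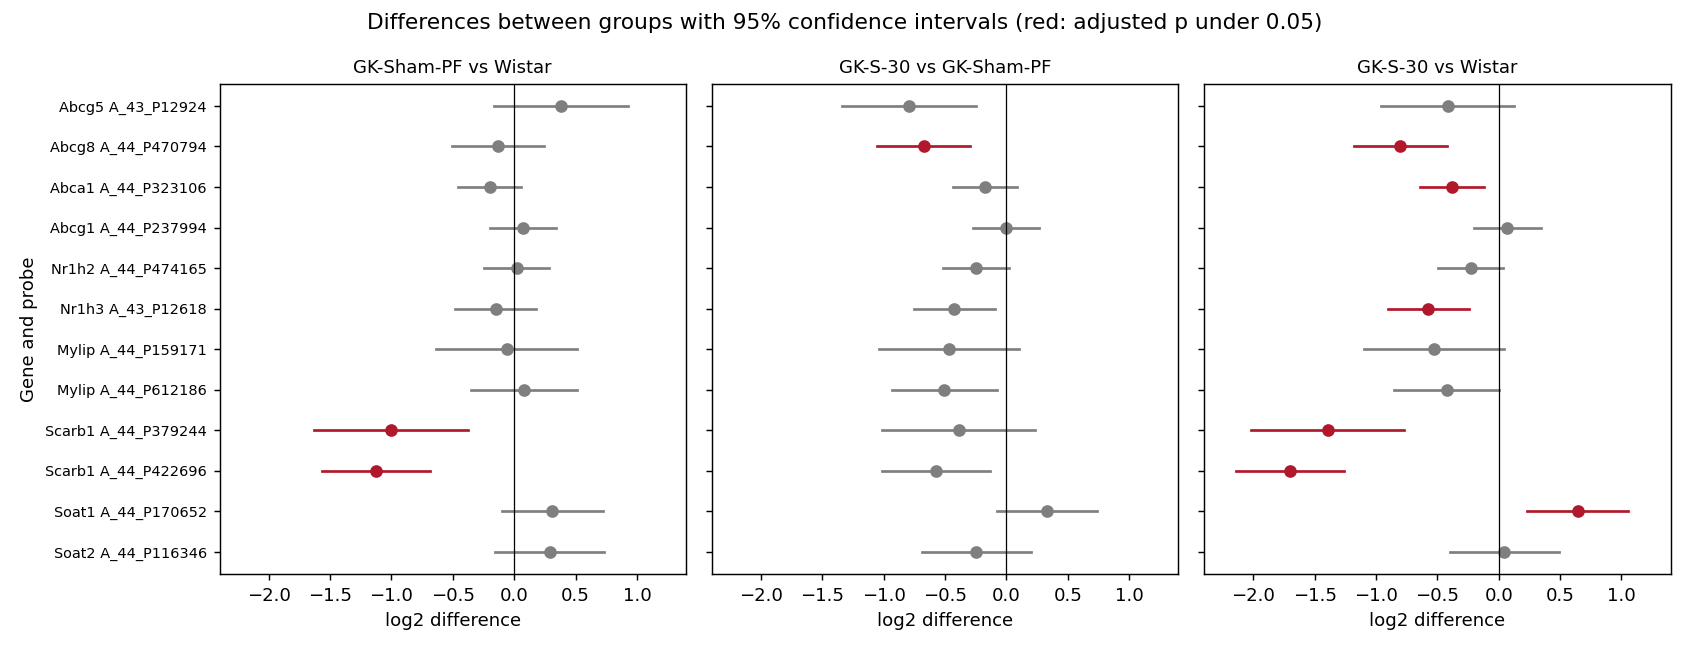
Log2 difference (horizontal axis) of each of the 12 tested probes in the 3 comparisons, with 95% confidence intervals of the limma model; red marks an adjusted p under 0.05. Scarb1 passes in both comparisons with Wistar, Abcg8 in both comparisons of GK-S-30, and in the middle panel 11 of 12 differences lie below 0, that of Abcg1 at -0.0028.

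Mylip, the LXR target that encodes a ubiquitin ligase, was read by 2 probes of 1 transcript record, neither of which passed in any pair. The upstream probe A_44_P159171 (chr17:25309536-25309595, minus strand) gave 5.30, 5.16, 5.53, 5.26 and 5.38 in Wistar, and 5.37, 5.16, 5.44, 5.00 and 5.35 in GK-Sham-PF rats. In GK-S-30 rats it gave 3.95, 4.42, 5.93, 5.18 and 4.51. Replicate 3 was the highest of all 15 arrays and replicates 1, 2 and 5 were the lowest of all, and the SD was 0.77 in GK-S-30 rats beside 0.14 in Wistar and 0.18 in GK-Sham-PF rats. The downstream probe A_44_P612186 (chr17:25308154-25308213, minus strand) gave 8.14, 8.72, 9.44, 9.22 and 8.71 in GK-S-30 rats, with ranges of 8.999 to 9.57 in Wistar and 9.03 to 9.57 in GK-Sham-PF rats. Here too replicates 1, 2 and 5 were the lowest of all 15 arrays. Differences of GK-S-30 versus GK-Sham-PF were -0.47 ± 0.27 (adjusted p = 0.335, limma) for the upstream and -0.50 ± 0.20 (adjusted p = 0.148) for the downstream probe, and those from Wistar were -0.53 and -0.42 (adjusted p = 0.169 and 0.143). With normexp background correction the upstream differences were -0.13 (adjusted p = 0.467) and -0.16 (adjusted p = 0.247). Without GK-S-30 replicate 1 those from GK-Sham-PF were -0.25 and -0.33 (upstream and downstream), neither passing. Without GK-S-30 replicate 3 both probes passed against GK-Sham-PF, at -0.75 (adjusted p = 0.0277) and -0.65 (0.0497), and against Wistar, at -0.81 (0.00736) and -0.57 (0.0438). GK-Sham-PF and Wistar rats differed by -0.06 and 0.08, and neither sign held under every alternative.

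Replicates 1, 2 and 5 of GK-S-30 were thus the low arrays of Abcg5, Nr1h3 and both Mylip probes, while replicates 3 and 4 lay near the other groups. For Abcg8 too replicates 3 and 4 were the highest of the group. Replicates 1 and 2 were on slide C and 3, 4 and 5 on slide D, so that the low arrays came from both slides. In these 5 rats the summed smooth muscle signal was 84161, 99667, 107473, 106690 and 108802, lowest on replicate 1. The summed macrophage signal was 37504, 33846, 49730, 45866 and 46636, lowest on replicates 1 and 2. Most of this sum was the signal of 1 gene, Lyz2. The part of slide or of tissue makeup in this spread was not tested. A subset of rats chosen by these values is not a group of the study, and no test was made between them.

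**Figure D3:**
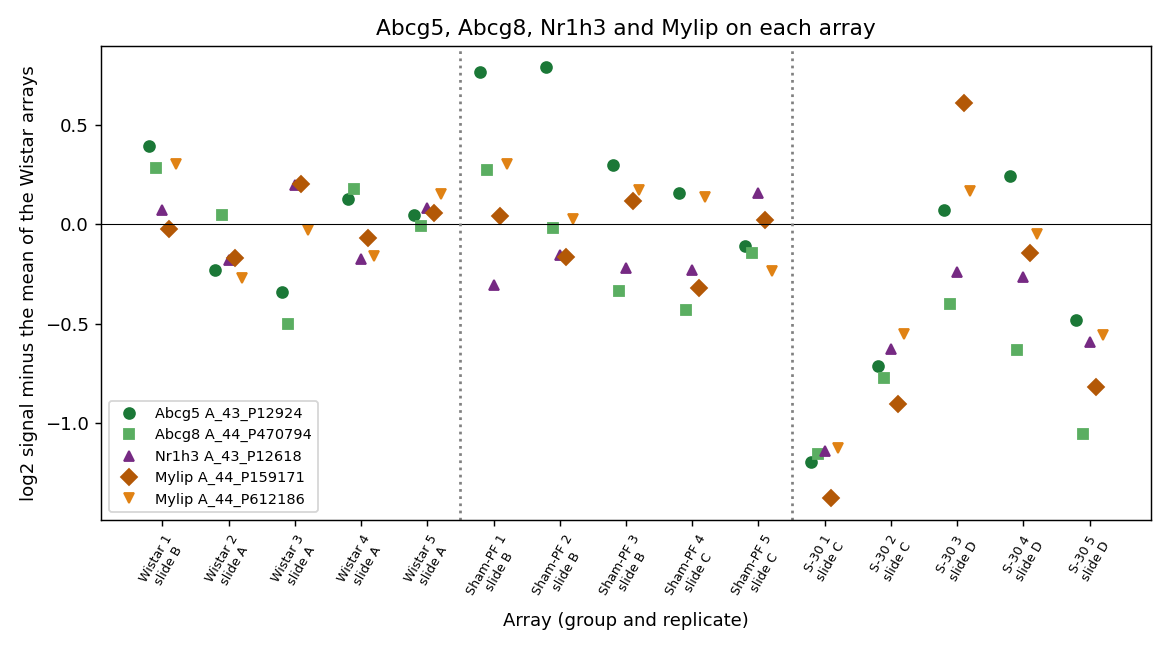
Log2 signal of Abcg5, Abcg8 (A_44_P470794), Nr1h3 and the 2 Mylip probes on each of the 15 arrays, minus that probe's Wistar mean (vertical axis), with the slide of each array on the horizontal axis. In GK-S-30 rats all 5 probes are low on replicates 1, 2 and 5, and Abcg5, Nr1h3 and Mylip are close to or above the other groups on replicates 3 and 4.

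Scarb1, which encodes the HDL receptor SR-BI and in enterocytes is found at the brush border and the basolateral side, showed the largest differences from Wistar rats among the 10 genes and the only ones that passed in GK-Sham-PF versus Wistar rats. Its probes are A_44_P379244 (chr12:32447458-32450453, plus strand), whose 60 bases span 2996 bases of genome and so cross a splice junction, and A_44_P422696 (chr12:32457588-32457647), further downstream in the same transcript record. The sequence of the first is shown because it reads spliced Scarb1 RNA independently of the downstream probe.
Scarb1 A_44_P379244: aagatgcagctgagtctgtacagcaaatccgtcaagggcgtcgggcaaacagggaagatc
The downstream probe gave 11.85, 12.46, 12.27, 12.57 and 12.34 in Wistar. It gave 11.37, 10.75, 10.77, 11.09 and 11.87 in GK-Sham-PF rats, against 10.36, 11.03, 10.39, 10.55 and 10.65 in GK-S-30 rats. Wistar was highest, GK-Sham-PF lay between, overlapping Wistar only through replicate 5, and all GK-S-30 arrays were below all Wistar arrays. The probe fell by 1.12 ± 0.21 from Wistar to GK-Sham-PF (2.18-fold, adjusted p = 0.00237, limma) and by 1.70 ± 0.21 from Wistar to GK-S-30 (3.25-fold, adjusted p = 3.174e-05), and both held with any 1 array left out. The further step from GK-Sham-PF to GK-S-30, -0.58 ± 0.21, did not pass (adjusted p = 0.103).

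The splice-junction probe of Scarb1 gave 9.83, 10.66, 8.75, 10.50 and 9.92 in Wistar. It gave 9.43, 8.69, 8.47, 9.05 and 9.01 in GK-Sham-PF rats, against 8.42, 9.03, 8.54, 8.36 and 8.34 in GK-S-30 rats. The groups were in the same order as with the downstream probe, and the Wistar array that fell into the range of the GK rats was replicate 3, the dimmest of its group. From Wistar rats the signal fell by 1.00 ± 0.29 in GK-Sham-PF (2.00-fold, adjusted p = 0.0494, limma) and the difference was -1.39 ± 0.29 in GK-S-30 rats (2.63-fold, adjusted p = 0.00303). The first was at the edge of the threshold and passed only when the array left out was Wistar replicate 3, GK-Sham-PF replicate 1 or GK-S-30 replicate 2; the adjusted p was 0.0589 to 0.127 without any other array. GK-S-30 and GK-Sham-PF differed by -0.39 (95% interval -1.02 to 0.23, adjusted p = 0.486). On slide B, the 1 Wistar and 3 GK-Sham-PF arrays differed by -0.88 (downstream) and -0.96 (splice junction). With slide as a fixed block no Scarb1 difference passed, with adjusted p of 0.398 and 0.789 between GK-Sham-PF and Wistar and of 0.09 and 0.483 between GK-S-30 and Wistar.

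Of the 2 esterification genes, Soat1 passed in GK-S-30 versus Wistar rats and Soat2 in no pair. Soat2 and Soat1 encode related enzymes, and their probes (Soat1 A_44_P170652, chr13:71423884-71424171, minus strand, and Soat2 A_44_P116346, chr7:140901533-140902003, plus strand) lie in the corresponding stretch of the coding sequence and both cross a splice junction. They are set side by side because a probe of one gene could pick up RNA of the other, and capitals mark bases that are identical in an ungapped alignment of the pair.
Soat1 A_44_P170652: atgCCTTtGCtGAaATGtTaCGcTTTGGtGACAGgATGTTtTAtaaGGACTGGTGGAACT
Soat2 A_44_P116346: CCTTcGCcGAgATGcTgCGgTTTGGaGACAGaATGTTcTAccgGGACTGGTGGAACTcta
Of 57 aligned bases 45 were identical (78.9%), the longest identical run being 14. Cross-hybridization was not tested.

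Soat1 was dim and was the one gene of the 10 whose mean signal was higher in GK-S-30 when set against GK-Sham-PF rats. It gave 3.71, 3.89, 3.84, 3.65 and 3.68 in Wistar, where 4 of 5 arrays were well above background. The probe met the filter for testing only through the GK groups, the side on which it was higher. It gave 4.90, 4.05, 3.65, 4.06 and 3.65 in GK-Sham-PF rats, against 4.51, 4.13, 4.58, 4.24 and 4.53 in GK-S-30 rats. All GK-S-30 arrays were above all Wistar arrays, and GK-Sham-PF covered both ranges, with replicate 1 the highest of all. Soat1 was higher in GK-S-30 than in Wistar rats by 0.64 ± 0.19 (1.56-fold, adjusted p = 0.024, limma), a call lost without Wistar replicate 4 or 5 or GK-S-30 replicate 1, 3 or 5 (adjusted p up to 0.0558) and with normexp background correction (0.13, adjusted p = 0.0758) or scaling to the 75th percentile (0.50, 0.0686). Against GK-Sham-PF the difference was 0.33 (adjusted p = 0.338), and without GK-Sham-PF replicate 1 it was 0.54 and passed (adjusted p = 0.025).

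Soat2 gave 10.22, 10.56, 9.497, 10.68 and 10.45 in Wistar. It gave 10.92, 10.61, 10.83, 10.44 and 10.05 in GK-Sham-PF rats, against 10.14, 10.46, 10.55, 10.32 and 10.16 in GK-S-30 rats. The ranges overlapped in all pairs, the lowest arrays in Wistar and in GK-Sham-PF being the dimmest arrays of those groups, replicates 3 and 5. Differences were 0.29 for GK-Sham-PF and 0.04 for GK-S-30 against Wistar and -0.25 between the GK groups (95% interval -0.69 to 0.20, adjusted p = 0.548, limma).

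Some markers of other cells differed between the GK groups, most of all those of smooth muscle and fibroblasts. Of 11 enterocyte genes listed 10 were on the array, and these were well above background in all 15 rats. Of 8 pancreatic acinar genes on the array 3 to 5 were above background on each array (Cpb1 and Pnlip on none), and of 8 gastric genes 4 to 7 (Cblif on none). Of 5 tested pancreatic genes 1 passed between the GK groups, beside 9.34% of all genes. It was the protease gene Ctrb1, lower in GK-S-30 rats (-0.92, adjusted p = 0.0115, limma). Of the 5, 2 had differences above 0, among them Prss1 (1.71, adjusted p = 0.0861). In GK-Sham-PF versus Wistar rats 1 passed, beside 8.27%, the amylase gene Amy2a3, which was higher (4.12, adjusted p = 1.95e-04). The summed signal of 8 pancreatic genes overlapped among all groups, at 3439 to 6125 over the 15 arrays. Summed linear signals of 10 enterocyte genes overlapped among all groups (842353 to 1038176 over the 15 arrays). Those of 7 smooth muscle genes were 21572 to 48824 in Wistar and GK-Sham-PF rats together and 84161 to 108802 in GK-S-30 rats, without overlap. Those of 8 macrophage genes were 53437 to 69822 in Wistar, 45770 to 61096 in GK-Sham-PF and 33846 to 49730 in GK-S-30 rats. Most of the macrophage sum came from Lyz2 (mean log2 signal 15.28 in GK-S-30 rats, beside 10.49 for Cd68). Of 7 tested macrophage genes 0 passed in GK-S-30 versus GK-Sham-PF by limma, beside 9.34% of all genes, 2 at an unadjusted p under 0.05 and 1 by the Tukey comparison. Against Wistar rats 3 of the 7 passed in GK-Sham-PF rats (2 lower), beside 8.27% of all genes, each taken by its brightest probe, and 5 in GK-S-30 rats (4 lower), beside 25.5%. Macrophages also express Abca1, Abcg1, Nr1h3 and Soat1. Between the GK groups 4 of 7 smooth muscle and 4 of 6 fibroblast genes passed and were higher in GK-S-30 rats, by limma. Of 5 lymphocyte genes 2 passed and were lower, while 2 of the 5 had differences above 0. The share over all genes was 9.34%. The part of these cells in the differences of the sterol genes was not tested.

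Outside the 10 genes, 2 of 16 tested LXR target genes passed in GK-S-30 versus GK-Sham-PF rats, beside 9.34% of all genes: Apoc2, an activator of lipoprotein lipase, fell by 0.65 (adjusted p = 0.00863, limma), and the desaturase gene Scd2, also controlled by SREBPs, was higher by 2.66 (adjusted p = 1.456e-04). The median of the 16 was -0.07, beside -0.03 over all genes. Srebf1, the LXR target that drives lipogenesis, differed by 0.13 between the GK groups and was lower in GK-Sham-PF than in Wistar rats by a difference of -0.65 (adjusted p = 0.0308, limma), 1 of the 16 that passed there, beside 8.27% of all genes. Between GK-S-30 and Wistar rats 7 of the 16 passed, 5 of them lower, beside 25.5% of all genes.

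Of 11 RXR and coregulator genes, partners of the receptors, 0 passed in GK-S-30 versus GK-Sham-PF by limma, beside 9.34% of all genes (1 at an unadjusted p under 0.05, 0 by the Tukey comparison), and 2 passed in GK-S-30 versus Wistar rats, beside 25.5%, both lower. In GK-Sham-PF versus Wistar rats 1 passed, beside 8.27%, the corepressor gene Nrip1, which was lower by a difference of -0.56 (adjusted p = 0.0049, limma). Among 6 tested genes of oxysterol metabolism 1 passed in GK-S-30 versus GK-Sham-PF rats, beside 9.34% of all genes. It was Ch25h, whose enzyme makes 25-hydroxycholesterol, an LXR ligand, and it was lower in GK-S-30 rats (-1.47 ± 0.36, adjusted p = 0.0199, limma). None of the 6 passed in GK-Sham-PF versus Wistar rats by limma, beside 8.27% of all genes (2 at an unadjusted p under 0.05, 0 by the Tukey comparison).

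Genes of sterol uptake, transfer and ester turnover passed in 3 of 18 cases in GK-S-30 versus GK-Sham-PF rats, all higher, beside 9.34% of all genes in either direction. They were Npc1, which moves CHOL out of lysosomes (0.65, adjusted p = 0.034, limma), the sterol carrier gene Stard4 (0.53, adjusted p = 0.014) and Anxa2 (0.58, adjusted p = 0.0158). Npc1l1, the brush border CHOL importer, differed by 0.16 (adjusted p = 0.622). In GK-Sham-PF versus Wistar rats 2 of 18 passed, beside 8.27%, Stard4 higher by 0.89 (adjusted p = 1.615e-04) and the lysosomal CHOL ester hydrolase gene Lipa lower (-0.58, adjusted p = 0.0498).

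Of 8 genes for HDL and chylomicron carriers, 2 passed in GK-S-30 versus GK-Sham-PF rats, beside 9.34% of all genes, both lower: Apoc3 (-1.16, adjusted p = 0.00715, limma) and Mttp, which loads lipid onto apoB (-0.34, adjusted p = 0.0346). Apoa1, the acceptor of CHOL from ABCA1, differed by -0.05 (adjusted p = 0.867). Apoa2 (-0.92, adjusted p = 0.00832) and Apom (-0.59, adjusted p = 0.00412) were the 2 that passed in GK-Sham-PF versus Wistar rats, beside 8.27%. Among 12 other ABC lipid transporters, 3 passed between the GK groups, beside the same 9.34%, all lower, among them Abcb11, the bile salt export pump gene (-0.76, adjusted p = 0.0206), and the peroxisomal transporter gene Abcd3 (-0.52, adjusted p = 0.0046). Abcb11 was also the largest difference in GK-Sham-PF versus Wistar rats among the sterol handling lists (3.79 higher, adjusted p = 1.641e-09), and Abcb4, a phospholipid transporter gene, was higher by 0.64 (adjusted p = 0.0366). SREBP2 targets stood beside these with 11 of 12 genes that passed and were higher in the GK-S-30 than in the GK-Sham-PF rats, beside 9.34% of all genes. All 12 differences were above 0, with a median of 1.61, beside -0.03 over all genes.

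**Figure D4:**
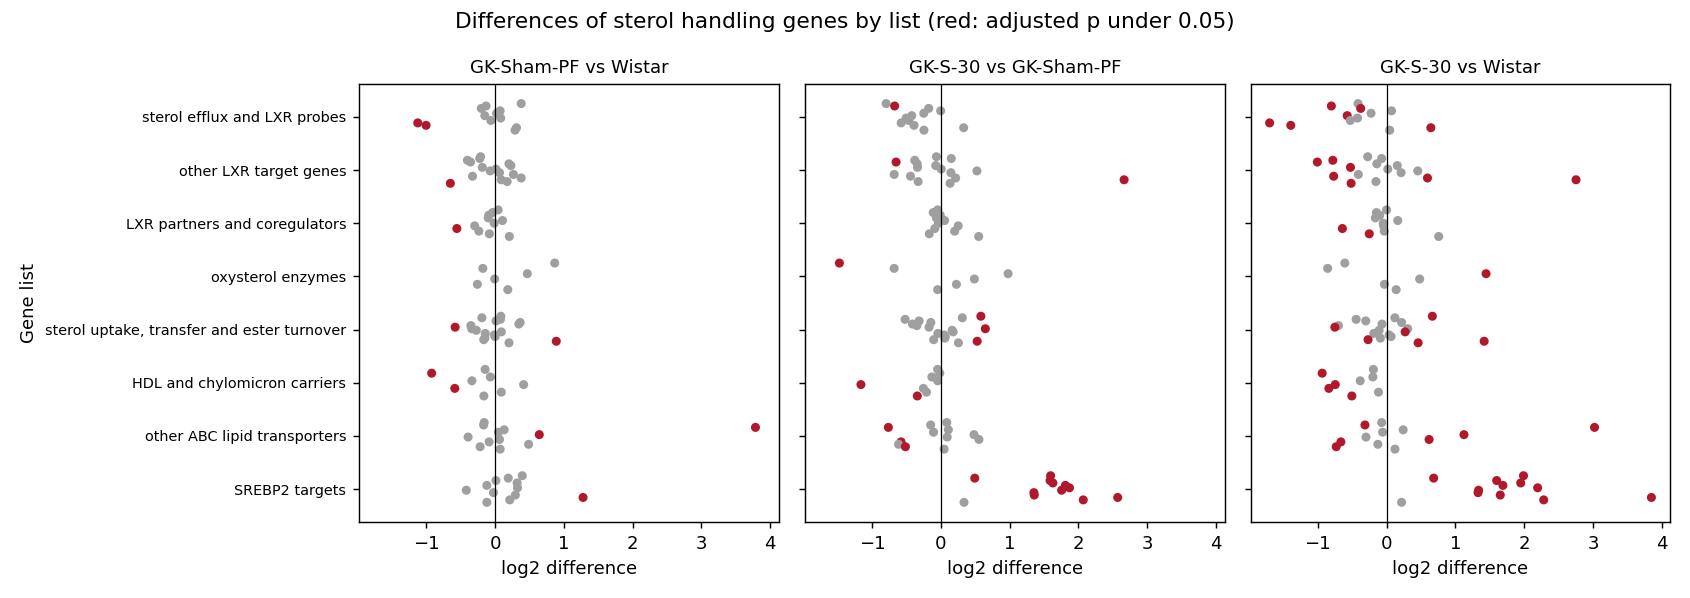
Log2 differences (horizontal axis) of the 12 tested sterol efflux and LXR probes and of the genes of 7 sterol handling lists, each gene by its brightest probe, in the 3 comparisons; red marks an adjusted p under 0.05. In the middle panel the SREBP2 targets lie to the right of 0 while the sterol efflux and LXR probes lie mostly to its left.

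For each gene of the 10 that passed in some pair, the genes with the most similar profile were sought among 12371 others, as the smallest root-mean-square difference between centered log2 signals over the 15 arrays. They were Ugt1a6, Tmem86a and Ceacam20 for Abcg8 (0.19 to 0.21, beside 0.44 for the spread of Abcg8 itself) and Sufu, Rab1b and Adora3 for Abca1 (0.12 to 0.13, beside 0.23). Zmat3, Ccser2 and Prss8 were nearest to Nr1h3 (0.13 to 0.15, beside 0.33). Amacr, Prmt6 and Qrich2 were nearest to the downstream Scarb1 probe (0.26 to 0.30, beside 0.77), and Aagab, St3gal6 and Plekha3 to Soat1 (0.14 to 0.22, beside 0.39). None of the 10 genes was among the 3 nearest of these 5, which says little, since only 3 of 12371 genes were taken for each.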

How the data were processed

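Per the labels and the methods, total RNA was labelled with Cy3, hybridized to Agilent whole rat genome arrays and read with Agilent Feature Extraction (10.7 per the submitters' processing notes, 10.7.3.1 per the file headers). The authors deposited per-array intensity files: the processed signal is an intensity from which local background had been subtracted and which was not scaled between arrays, with the mean signal and median background beside it. The series matrix deposited by the authors holds log2 values after quantile normalization.

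Control spots and outlier flags were left out, spots of a probe averaged, and log2 processed signals brought to a common distribution by quantile normalization (limma 3.58.1, R 4.3.3), which takes for granted that the bulk of genes is alike in all arrays. Symbols came from RefSeq names (17532 probes by accession, 3107 by symbol, 539 by synonym, 117 from the file only); 19717 probes without a gene name were not tested. A probe was tested if well above background on all arrays of at least 1 group (16314 probes, 26 of them with a missing value), in 1 model of 3 groups (lmFit, eBayes), Benjamini-Hochberg adjusted. The median standard error of a difference was 0.15, and the number of arrays limits precision. On single arrays 66.7% to 74.8% of all probes exceeded background, and 0 were saturated. The procedure was tested on simulated data without slide effects, which cannot show how slide affects the calls.

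The 10 genes and all gene lists were chosen with earlier results of these data known. Named genes are the 10 members with every probe, in each list up to 4 with the largest passing change in either comparison with GK-Sham-PF rats, and the 3 most similar profiles, except genes not reported here; Npc1l1 and Apoa1, and Srebf1 between the GK groups, were named for their roles after their values were seen. Each array is 1 rat; the labels number the rats within a group. Probe positions are those of the files (rn4); promoters are RefSeq GRCr8 and were not set against rn4 positions. Alternatives were other scaling and background settings, probe filters, the authors' matrix, slide and replicate blocks, fits on 2 groups, without the 2 dimmest arrays or without each array, and the methods' Tukey comparison.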

Additional observations from a re-analysis of the deposited data

Results flagged for a closer look

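Each probe of the 10 genes and each summed marker signal was searched in every group of 5 arrays for a highest or lowest array that stood far from the rest. Of 69 groups of values 7 held one, and chance alone gives about 1 in 20. The Nr1h2 probe was high on Wistar replicate 3 (12.40, next 11.96) and on GK-Sham-PF replicate 5 (12.45, next 12.02), the 2 arrays of lowest overall brightness. The dim Abcg8 probe A_44_P434455 was high on Wistar replicate 1 (1.59, next 1.34) and GK-Sham-PF replicate 1 (1.93, next 1.36), although below the limit for being well above background. The summed smooth muscle signal was high in GK-Sham-PF replicate 4 (48824, next 25223). The summed fibroblast signal was low in GK-S-30 replicate 4 (24191, next 26660), and the summed hepatocyte signal was low in Wistar replicate 5 (243, next 358). The part of array brightness or tissue makeup in these values was not tested.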

How the results depend on the processing

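Among the probes of the 10 genes, counts that passed were 1 (GK-S-30 against GK-Sham-PF), 2 (GK-Sham-PF against Wistar) and 6 (GK-S-30 against Wistar). With slide as a fixed block they were 0 in each (7, 1 and 5 at an unadjusted p under 0.05, limma), a fit that uses only the slide shared by the groups for the first and second comparison. With the replicate number as a block the first was 0 (5 unadjusted) and the others did not change; the numbers do not pair the rats, since correlations of deviations for 15 same-numbered pairs ran from -0.30 to 0.20 (median -0.09), and 1 of 15 arrays correlated best with its own number. Tukey with Benjamini-Hochberg gave 0, 1 and 3, and Tukey without adjustment over probes gave 2 for the first. Without the 2 dimmest arrays the first was 2. With 75th percentile scaling, no filter on dim probes, or only the compared groups in the fit, the second was 1. Leaving out 1 array gave 0 to 4 for the first (0 without GK-Sham-PF replicate 2 or GK-S-30 replicate 1 or 5, 4 without GK-S-30 replicate 3) and 1 to 2 for the second. Over all probes, 1391, 1260 and 3925 passed; with slide as a fixed block 329, 197 and 255, with Tukey and Benjamini-Hochberg 565, 781 and 2574, with Tukey alone 2478 and 2261 (first and second), and with all probes in the family 2184 and 6352 (GK-Sham-PF and GK-S-30 against Wistar). Over the gene lists, 22, 9 and 37 passed; with slide as a fixed block 12, 2 and 11, with Tukey and Benjamini-Hochberg 12 and 4, and with Tukey alone 15 (second). Differences that changed sign did not pass in either fit. In GK-S-30 versus GK-Sham-PF they were Abca1 (0.087), Soat2 (0.056) and Abcg1 (0.43) with the slide block, and Abcg1 with 75th percentile scaling (0.063), normexp (0.032) and 1 array left out (-0.071 to 0.091). Between GK-Sham-PF and Wistar they were Mylip A_44_P159171 (0.021) and A_44_P612186 (-0.13) with the slide block and, with 1 array left out, Abcg1 (-0.020 to 0.14), Nr1h2 (-0.078 to 0.11) and Mylip A_44_P159171 (-0.11 to 0.0037). Soat2 between GK-S-30 and Wistar was -0.15 without the 2 dimmest arrays and -0.15 to 0.14 with 1 array left out. The cause of these changes was not tested.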
